A study of Mus musculus with 24 samples.

Results

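T and NK cell genes were followed through mammary glands of ageing mice that carried an inducible transgene. They were 40 genes named by symbol and found as rows of the deposited expression table, which held 55487 genes for 24 glands, 1 library per mouse. Of these, 37 were protein-coding genes and 3 were constant-region genes of the T cell receptor. They were picked by symbol and role, with no threshold on a measured value. The mice belonged to 2 lines, MMTV-rtTA/tet-op-Esr1, which overexpresses oestrogen receptor alpha, and MMTV-rtTA/tet-op-CYP19A1, which overexpresses aromatase, the enzyme that makes oestrogens. In both lines an rtTA activator under the MMTV promoter, which is active in mammary epithelium, switches on a transgene behind a tet operator. Each line gave 4 groups of 3 mice. The first group was 18 months old, with the transgene induced for 6 months. The second was 20 months old and induced for 8 months, with no treatment label. Its descriptions carry a tag, PLA, that the labels do not explain, and it is called untreated here. The remaining groups, also 20 months old and induced for 8 months, had carried from 18 months on a subcutaneous pellet of tamoxifen (25 mg released over 60 days), a modulator of the oestrogen receptor, or of letrozole (2.5 mg over 60 days), an aromatase inhibitor. All 8 groups carried an induced transgene, and no mice without a transgene were analysed here. The design asks how the lines differ late in life and how each responds to the drugs.

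T cells recognise peptides on major histocompatibility complex (MHC) molecules through a receptor whose alpha and beta chains bind the antigen and whose CD3 and zeta chains carry the signal inward. CD4 and CD8 act as coreceptors for MHC class II and class I, and the kinases Lck and Zap70 and the adaptor Lat pass the signal on. Natural killer (NK) cells lack this receptor, weigh activating against inhibitory receptors, and kill with the same perforin and granzymes that cytotoxic T cells use. In the mammary gland, T and NK cells lie within and around the epithelial ducts and in the stroma, and a lymph node lies in the fat pad of some glands.

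The promoters of 3 CD3 genes are shown first because these genes, which lie side by side on chromosome 9, were lower together in the comparisons below. Cd3g (ENSMUSG00000002033.14, 44969572-44980431) and Cd3d (ENSMUSG00000032094.8, 44981769-44987052) are read in opposite directions. The promoter table places their transcription starts 1355 bases apart. The start of Cd3e (ENSMUSG00000032093.7, 44998735-45009663) lies 29180 bases from that of Cd3g. The starts in the promoter table differ slightly from the ends of the gene positions, so the Cd3d and Cd3e windows reach into those positions. Each line gives the 250 bases before a transcription start, 5′ to 3′ on the strand of the gene, from RefSeq, GRCm38.p6. Capitals mark AGGAAG, a core of Ets family sites, and CTTTGA, a core of Tcf/Lef sites, on either strand. The windows are chr9:44980432-44980681 (minus strand) for Cd3g, chr9:44981536-44981785 (plus strand) for Cd3d and chr9:45009612-45009861 (minus strand) for Cd3e.
Cd3g: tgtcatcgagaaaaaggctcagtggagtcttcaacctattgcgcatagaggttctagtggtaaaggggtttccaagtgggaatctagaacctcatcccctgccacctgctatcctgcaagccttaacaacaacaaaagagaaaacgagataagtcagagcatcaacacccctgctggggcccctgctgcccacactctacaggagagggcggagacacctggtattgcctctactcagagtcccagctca
Cd3d: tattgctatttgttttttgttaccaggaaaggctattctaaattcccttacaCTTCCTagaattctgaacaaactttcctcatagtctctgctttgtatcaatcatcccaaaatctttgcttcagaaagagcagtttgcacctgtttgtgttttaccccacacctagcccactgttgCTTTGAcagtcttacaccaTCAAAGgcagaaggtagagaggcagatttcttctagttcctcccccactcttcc
Cd3e: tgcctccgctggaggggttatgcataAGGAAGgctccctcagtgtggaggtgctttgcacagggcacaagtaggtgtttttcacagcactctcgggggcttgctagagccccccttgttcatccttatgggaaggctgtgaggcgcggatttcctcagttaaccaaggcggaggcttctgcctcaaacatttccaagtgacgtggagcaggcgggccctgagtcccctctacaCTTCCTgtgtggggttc
The Cd3d window held 1 Ets match and 2 Tcf/Lef matches, the Cd3e window held 2 Ets matches, and neither motif was in the Cd3g window.

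Across the 26 members with a promoter in the table, 32 windows of 250 bases were searched on both strands, as were all 32851 windows of that length in the table. AGGAAG (reverse complement CTTCCT) was in 18 of the 32 member windows (56.2%) and in 29.5% of all windows. TGTGGT (reverse complement ACCACA), a core of Runx sites, was in 11 member windows (34.4%) and in 14.0% of all windows. The 10 members with this match included the cytotoxic genes Gzma, Gzmb, Prf1 and Nkg7 and the NK receptors Ncr1 and Klrb1c. CTTTGA (reverse complement TCAAAG) was in 4 member windows (12.5%) and in 13.8% of all windows. The 3 motifs do not contain one another, some members have several windows, and a match is a description of letters only.

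The deposited values were TPM, the abundance of transcripts scaled for their length and for the library total, and the depth of the libraries is unknown. Between 14410 and 17684 genes reached 1 TPM in a library, the fewest in letrozole-treated CYP19A1 mouse 1. Mitochondrial genes took 9.82% to 27.9% of the TPM and signal recognition particle RNA 19.9% to 38.8%. Ribosomal RNA gene models took 31.2% in untreated Esr1 mouse 2 and at most 3.60% elsewhere. Mammary epithelial markers were present in all 24 libraries (summed TPM of 8 genes from 59.8 to 717), and so were skeletal muscle markers (12 genes, 21.8 to 31628). The labels give the mice of a group different animal numbers, so the tests measure the spread between mice.

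The members had low levels, and none was listed at 0 in any library. Ccl5, a chemokine made by activated T and NK cells, had the highest median over the 24 libraries (5.93 TPM), ahead of Trbc2 (5.48), a constant region of the receptor beta chain. Pdcd1, which encodes the inhibitory receptor PD-1, had the lowest (0.12 TPM). In total 29 members reached 1 TPM in at least 3 libraries and were tested. The other 11 were Icos, Ctla4, Pdcd1, Foxp3, Gzmk, Prf1, Klrb1c, Ncr1, Eomes, Tbx21 and Ccr7, and these are described by their levels only. Trbc1 and Trbc2 have near-identical sequences and can trade reads in the authors' estimates, so the split between them is uncertain.

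The summed TPM of the 40 members fell into a high and a low set of groups. It was 72.1, 126 and 107 in the 18-month Esr1 mice, 113, 96.8 and 109 in the untreated 20-month Esr1 mice, and 199, 96.7 and 104 in the 18-month CYP19A1 mice. It was 57.7, 49.6 and 36.1 in the untreated 20-month CYP19A1 mice. Every mouse of the first 3 groups lay above every mouse of this group. Under tamoxifen it was 44.6, 65.7 and 49.7 in the Esr1 line and 51.5, 52.4 and 69.3 in the CYP19A1 line. Under letrozole it was 50.2, 39.9 and 65.7 in the Esr1 line and 28.7, 65.7 and 45.2 in the CYP19A1 line. The 5 low groups overlapped one another, the 3 high groups overlapped one another, and the lowest mouse of the high groups (72.1) lay just above the highest of the low groups (69.3). In whole tissue, fewer T and NK cells and less of these RNAs per cell cannot be told apart.

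**Figure D1:**
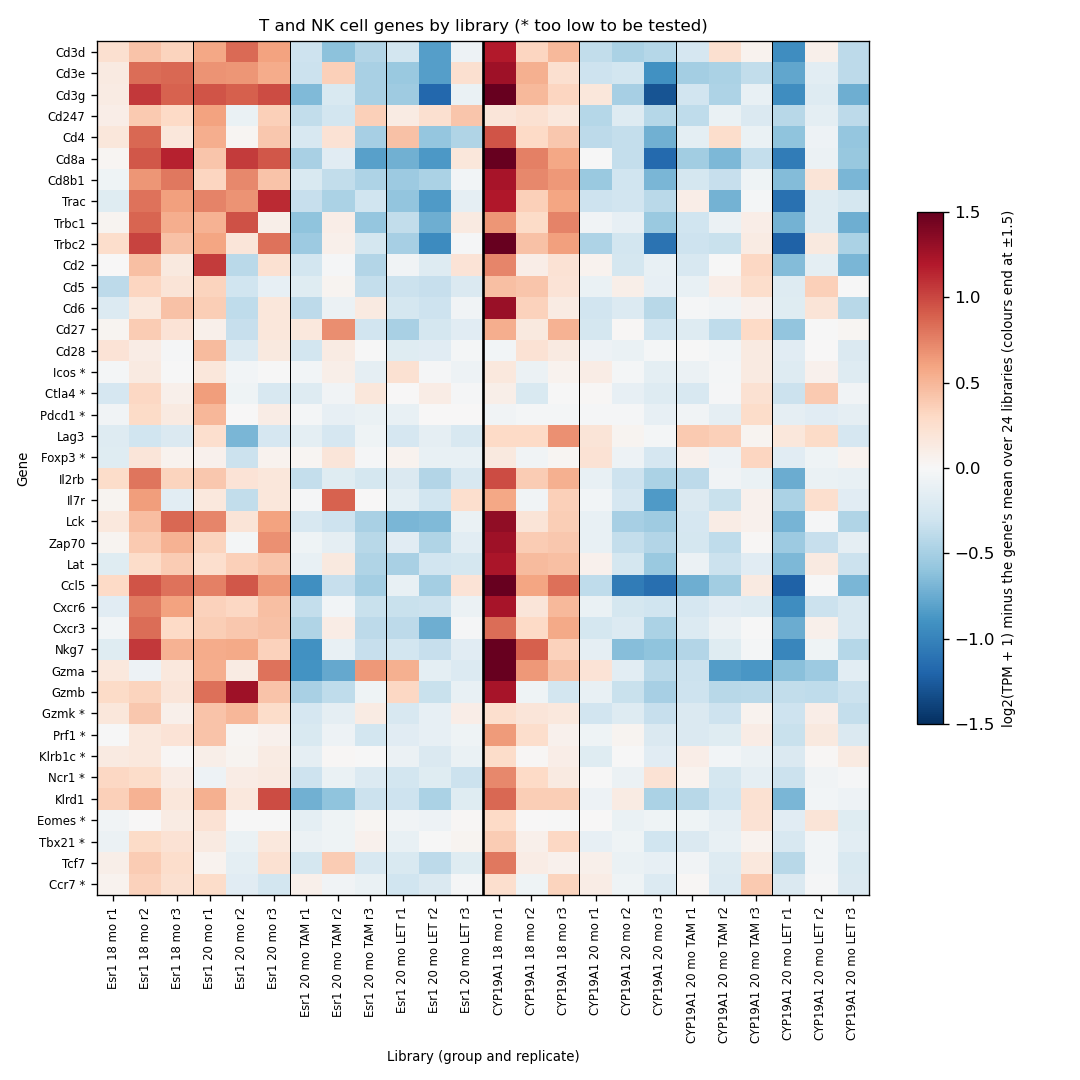
Level of each of the 40 members (rows) in each of the 24 libraries (columns), as log2(TPM + 1) minus the gene's mean over all libraries (mo, months; TAM, tamoxifen; LET, letrozole; r, replicate; stars, members not tested). Red columns are mainly the 18-month and untreated 20-month Esr1 mice and the 18-month CYP19A1 mice, and blue columns are mainly the other 5 groups. By median rank over the tested members, 18-month Esr1 mouse 1 (14 of 24 from the lowest) stood level with tamoxifen-treated CYP19A1 mouse 3 (14).

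Single mice weighed on these groups. CYP19A1 18-month mouse 1 was the highest of the 24 libraries for 24 of the 40 members. Letrozole-treated CYP19A1 mouse 1 was the lowest for 13 of the 29 tested members, and untreated 20-month CYP19A1 mouse 3 for 9. The results that rest on such libraries are therefore given with and without them.

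In the CYP19A1 line the members were lower at 20 than at 18 months. The 20-month mice had also been induced for 8 months and not 6, and only they carry the PLA tag. Age, length of induction and whatever the tag stands for cannot be told apart, in either line. This contrast is called age for short. Of 29 tested members, 17 fell at an adjusted p under 0.05 (limma with Benjamini-Hochberg adjustment over the 19325 genes tested), none rose, and 6.45% of all tested genes fell. Those that fell were the receptor chains Cd3d, Cd3e, Cd3g, Trac and Trbc2, the coreceptors Cd4, Cd8a and Cd8b1, the signalling genes Lck, Zap70 and Lat, and Cd6, Il2rb, Ccl5, Cxcr3, Cxcr6 and Nkg7. Their log2 differences ran from -1.99 to -0.85. The median log2 difference was -0.93 over the tested members and -0.23 over all tested genes. Of the tested members, 25 were lower with no overlap between the groups, as were 33.8% of all tested genes. Without CYP19A1 18-month mouse 1, 2 members passed, Ccl5 and Cd8b1. Without untreated 20-month mouse 3 none passed, and without mouse 2 of that group 9 did.

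In the Esr1 line no member passed between 18 and 20 months, and 0.00517% of all tested genes did. No member had an unadjusted limma p under 0.05 either, beside 1214 of the 19325 genes. The median log2 difference of the members was 0.02, beside -0.14 over all genes. The difference in the age effect between the lines was tested directly. No member passed (0.00517% of all genes did, 1 gene), although 22 of 29 had an unadjusted p under 0.05, beside 1652 of the 19325 genes, and all 29 differences were negative. Ccl5 had the largest, -2.09 ± 0.49 (limma adjusted p = 0.38) on the log2 scale, and Cd3d had -1.43 ± 0.34 (limma adjusted p = 0.38). No member's age effect was therefore shown to differ between the lines.

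At 20 months without treatment, the CYP19A1 line had lower levels than the Esr1 line. Of 29 tested members 9 were lower and none higher, and 3.16% of all tested genes were lower. The 9 were Cd3d, Cd3e, Cd3g, Cd247, Trac, Cd8a, Cd8b1, Ccl5 and Gzmb. The median log2 difference, CYP19A1 minus Esr1, was -0.70 over the tested members and 0.02 over all genes. With no overlap between the groups, 20 members were lower, as were 13.0% of all tested genes. Those whose groups overlapped were Cd2, Cd5, Cd6, Cd27, Cd28, Lag3, Il7r, Gzma and Tcf7. Without untreated CYP19A1 mouse 3 none of the 29 passed, and 4 passed without Esr1 mouse 2, the library rich in ribosomal RNA. Likewise 4 passed without Esr1 mouse 3 or CYP19A1 mouse 2, and 5 without CYP19A1 mouse 1. The comparison shares its CYP19A1 mice with the age comparison above.

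Members were lower under letrozole in the Esr1 line. Of 29 tested members, 9 fell (Cd3d, Cd3e, Cd3g, Trac, Cd8a, Cd8b1, Lck, Cxcr3 and Klrd1), none rose, and 5.81% of all tested genes fell. The median log2 difference was -0.69 over the tested members and -0.01 over all genes. With no overlap between the groups, 18 members were lower, as were 16.5% of all tested genes. None passed without letrozole mouse 2, 2 passed without letrozole mouse 1, 4 without untreated mouse 2 and 5 without untreated mouse 3. The groups compared here share no library with those of the age comparison in the CYP19A1 line. The fit takes each gene's spread from all 24 libraries, however, so the calls of these comparisons are not independent. Both comparisons called Cd3d, Cd3e, Cd3g, Cd8a, Cd8b1, Trac, Lck and Cxcr3. These are 47.1% of the 17 members called for age and 88.9% of the 9 called for letrozole. Over all tested genes the 419 shared calls were 33.6% of 1246 and 37.3% of 1122.

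Tamoxifen gave fewer calls in the Esr1 line. Of 29 tested members 4 fell (Cd3d, Trac, Gzmb and Klrd1), none rose, and 0.838% of all tested genes fell. The median log2 difference was -0.65 over the tested members and 0.05 over all genes. With no overlap between the groups, 17 members were lower, as were 6.98% of all tested genes. None passed without tamoxifen mouse 3, 1 passed without untreated mouse 2 or tamoxifen mouse 1, and 2 without untreated mouse 3. Both drug comparisons and the line comparison at 20 months share the 3 untreated Esr1 mice. Tamoxifen and letrozole were also set against each other in this line: no member passed, and 0.129% of all genes did. An unadjusted limma p under 0.05 was found for 1 member (Cd27), beside 1475 of the 19325 genes.

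In the CYP19A1 line neither drug gave a call among the members. None had an unadjusted p under 0.05 by limma, beside 846 of the 19325 genes for tamoxifen and 733 for letrozole. Of all tested genes 0.160% passed for tamoxifen and 0.0207% for letrozole. The median member log2 difference was 0.13 for tamoxifen and -0.02 for letrozole. Tamoxifen against letrozole in this line also gave none (0.248% of all genes), and 0 members unadjusted, beside 1950 of the 19325 genes. Whether the drug effects differed between lines was tested as an interaction, which gave no call for tamoxifen (0% of all genes) or letrozole (0% of all genes). At an unadjusted p under 0.05 there were 15 members for tamoxifen, beside 2021 of the 19325 genes, and 11 for letrozole, beside 2277. Cd3d had the smallest p in both, at 1.57 ± 0.34 (limma adjusted p = 0.20) for tamoxifen and 1.07 ± 0.34 (limma adjusted p = 0.31) for letrozole. The untreated CYP19A1 mice were themselves among the low groups.

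Mitochondrial RNA differed along with some of these comparisons. Its share of the TPM was 13.7% to 17.5% in CYP19A1 mice at 18 months and 21.0% to 27.9% untreated at 20 months, without overlap. In Esr1 mice it was 9.82% to 21.8% untreated and 22.3% to 23.2% under letrozole, also apart, and 17.9% to 24.1% under tamoxifen, which overlapped. Its part in the members' differences was not tested.

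**Figure D2:**
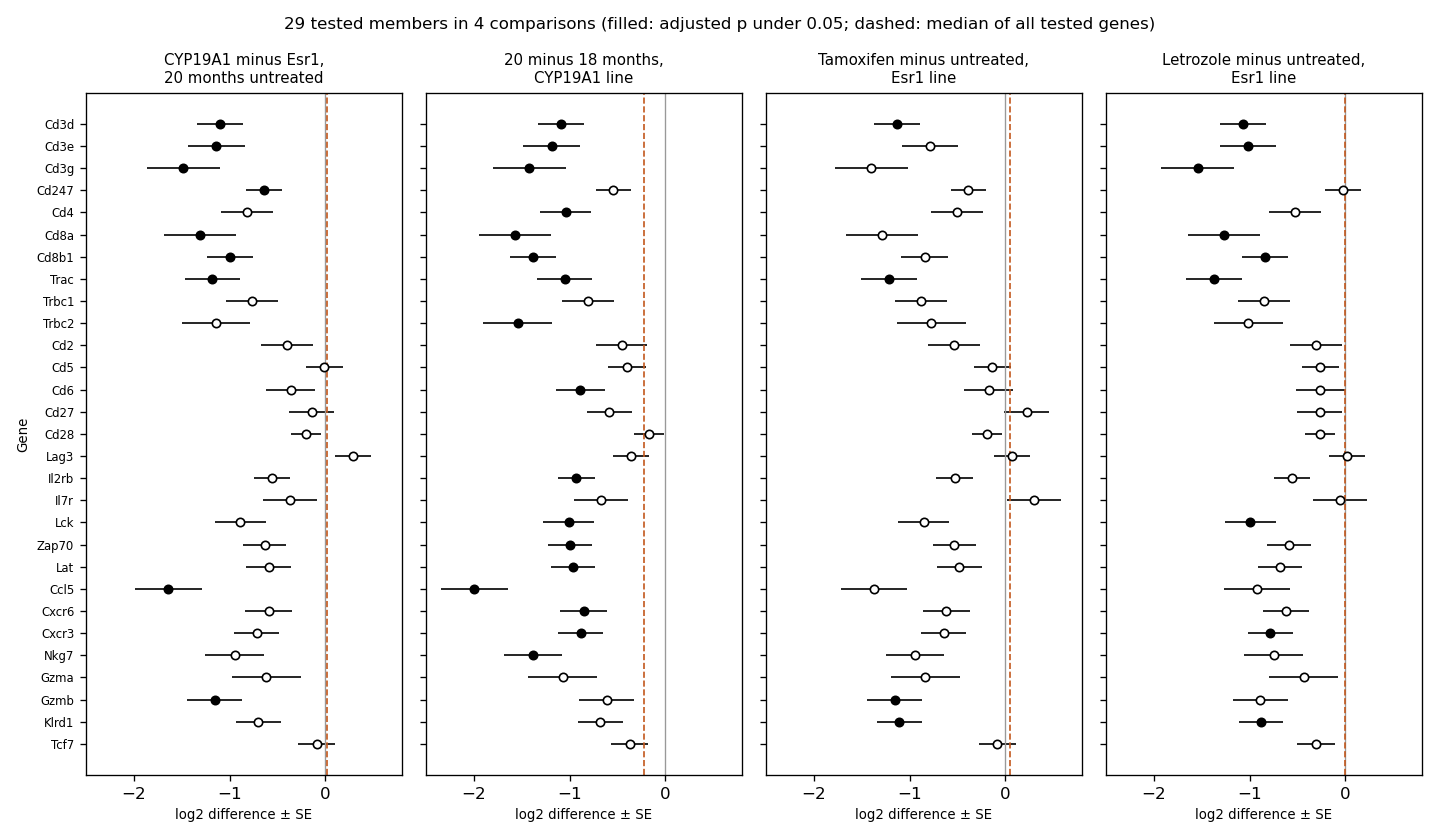
Log2 difference of each of the 29 tested members (points, with the standard error of the limma fit) in 4 comparisons; filled points passed an adjusted p of 0.05 and the dashed line is the median of all tested genes. Filled points number 9, 17, 4 and 9 from left to right and all lie below 0, while Trbc1, Cd2, Cd5, Cd27, Cd28, Lag3, Il7r, Gzma and Tcf7 are unfilled in every panel.

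For all 3 CD3 chains the lower group lay apart from the other in the 4 comparisons with calls, although the tamoxifen difference passed for Cd3d alone. Cd3d, a CD3 chain of the T cell receptor complex, was at 2.84, 3.63 and 2.91 TPM in untreated Esr1 mice, 1.08, 0.68 and 0.90 under tamoxifen and 1.13, 0.45 and 1.45 under letrozole. In the CYP19A1 line it was at 4.87, 2.23 and 2.61 TPM at 18 months and 0.99, 0.86 and 0.91 at 20 months. None of these groups overlapped its comparison group, and Cd3d passed in all 4 comparisons. Its log2 difference was -1.10 ± 0.24 (limma adjusted p = 0.011) between the untreated lines, -1.09 ± 0.24 (limma adjusted p = 0.015) with age in the CYP19A1 line, -1.13 ± 0.24 (limma adjusted p = 0.027) with tamoxifen and -1.07 ± 0.24 (limma adjusted p = 0.012) with letrozole in the Esr1 line. The 18-month Esr1 mice stood at 2.04, 2.48 and 2.24 TPM, and the treated CYP19A1 mice at 1.17, 2.04 and 1.68 under tamoxifen and 0.35, 1.71 and 0.96 under letrozole.

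Cd3g, whose promoter lies beside that of Cd3d, was at 6.43, 6.15 and 6.58 TPM in untreated Esr1 mice, 1.44, 2.28 and 1.75 under tamoxifen and 1.66, 0.70 and 2.60 under letrozole. It was at 12.7, 4.39 and 3.81 TPM in 18-month and 3.32, 1.73 and 0.57 in untreated 20-month CYP19A1 mice. The groups did not overlap, and the first 18-month CYP19A1 mouse stood far above the rest. On the log2 scale it differed by -1.54 ± 0.38 (limma adjusted p = 0.018) for letrozole, -1.48 ± 0.38 (limma adjusted p = 0.028) between lines and -1.42 ± 0.38 (limma adjusted p = 0.028) for age, while tamoxifen missed the threshold at -1.40 ± 0.38 (limma adjusted p = 0.062). Cd3e, the CD3 chain that pairs with both of them, was at 4.55, 4.50 and 4.11 TPM in untreated Esr1 mice, 1.77, 3.43 and 1.48 under tamoxifen and 1.36, 0.96 and 3.08 under letrozole. It was at 7.40, 4.0 and 3.11 TPM in 18-month and 1.79, 1.86 and 0.84 in untreated 20-month CYP19A1 mice. Cd3e also showed no overlap, although tamoxifen mouse 2 and letrozole mouse 3 stood closer to the untreated mice than the other treated mice did. Its log2 difference was -1.14 ± 0.30 (limma adjusted p = 0.03) between lines, -1.19 ± 0.30 (limma adjusted p = 0.023) for age and -1.02 ± 0.30 (limma adjusted p = 0.038) for letrozole, and -0.79 ± 0.30 (limma adjusted p = 0.16) for tamoxifen did not pass.

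Cd247, which encodes the zeta chain that recruits Zap70 and also serves NK receptors, behaved differently. It was at 3.17, 1.58 and 2.53 TPM in untreated Esr1 mice, 1.13, 1.27 and 2.52 under tamoxifen and 1.99, 2.26 and 2.69 under letrozole. The untreated group overlapped both drug groups, and neither drug difference passed (-0.39 ± 0.19 and -0.03 ± 0.19 on the log2 scale). In CYP19A1 mice it was at 2.13, 2.23 and 2.08 TPM at 18 months, 1.05, 1.41 and 1.04 untreated at 20 months, 1.11, 1.57 and 1.37 under tamoxifen and 1.07, 1.48 and 1.09 under letrozole. The untreated 20-month lines did not overlap and differed by -0.64 ± 0.19 (limma adjusted p = 0.0496) on the log2 scale. This call was kept in 4 of 14 alternatives, and leaving out any mouse of these groups but Esr1 mouse 2 ended it.

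Trac (ENSMUSG00000076928.5, chr14:54220521-54224198), the constant region of the receptor alpha chain, was at 6.88, 6.48 and 9.20 TPM in untreated Esr1 mice, 2.71, 2.39 and 2.82 under tamoxifen and 2.12, 1.6 and 3.27 under letrozole. It was at 9.82, 5.02 and 6.08 TPM in 18-month and 2.78, 2.84 and 2.56 in untreated 20-month CYP19A1 mice. The groups did not overlap in any of the 4 comparisons, and Trac passed in all of them. It differed on the log2 scale by -1.37 ± 0.29 (limma adjusted p = 0.0089) for letrozole, -1.22 ± 0.29 (limma adjusted p = 0.041) for tamoxifen, -1.18 ± 0.29 (limma adjusted p = 0.022) between lines and -1.05 ± 0.29 (limma adjusted p = 0.031) for age. Trbc2, a beta chain constant region, was at 20.0, 7.61 and 8.76 TPM in 18-month and 3.62, 4.23 and 1.95 in untreated 20-month CYP19A1 mice, without overlap, and fell by 1.54 ± 0.36 (limma adjusted p = 0.018). Its neighbour Trbc1, 7064 bases away on chromosome 6, passed in no comparison and ranged from 1.22 to 6.18 TPM. Since the 2 genes can trade reads, the difference between them is uncertain.

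**Figure D3:**
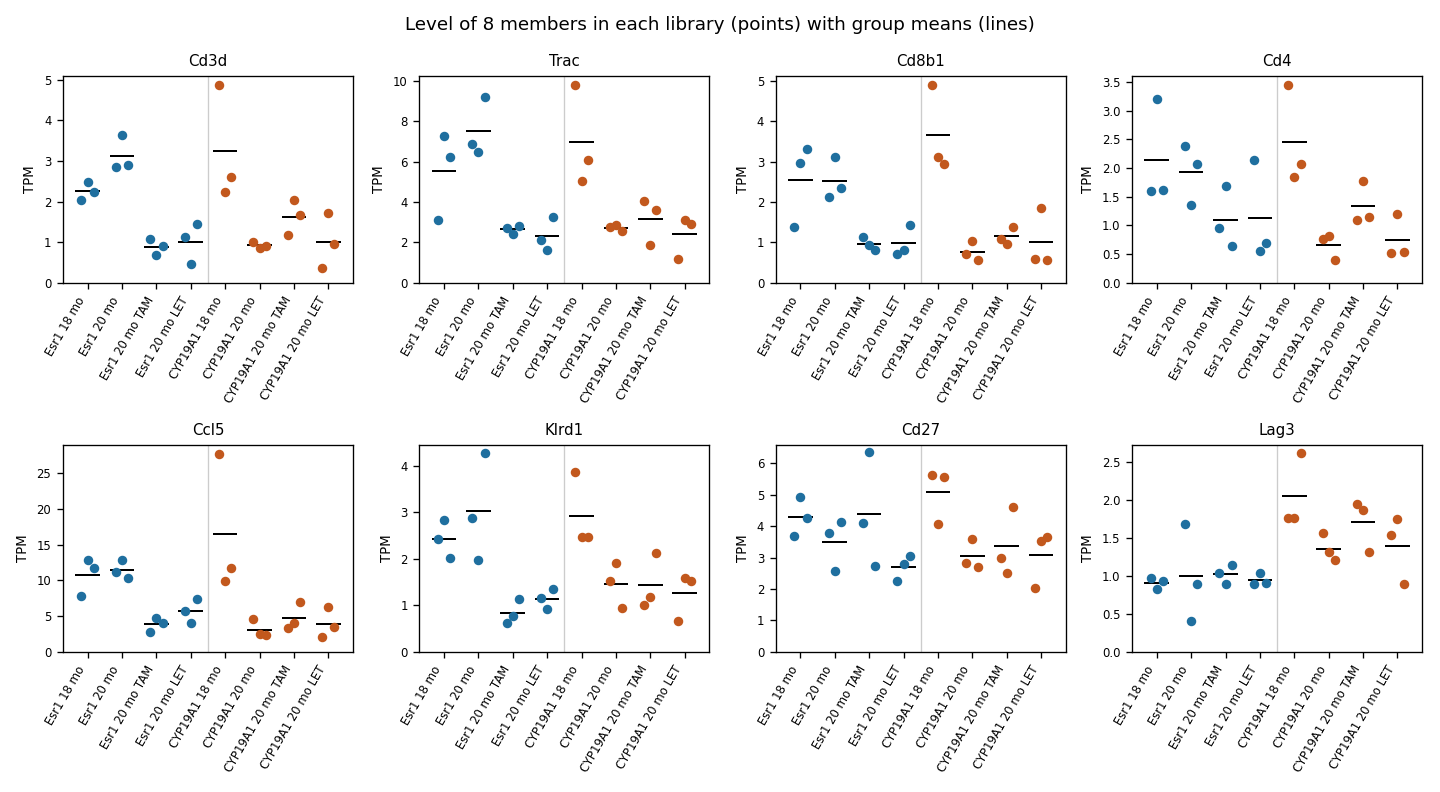
TPM of 8 members in each library (points; blue, Esr1 line; orange, CYP19A1 line) with the group means (lines), for 3 mice a group. Cd3d, Trac, Cd8b1, Ccl5 and Klrd1 show low untreated 20-month CYP19A1 mice and low drug-treated Esr1 mice, Cd4 and Cd27 overlap more, and Lag3 is higher in most CYP19A1 mice.

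Both CD8 chains passed in 3 comparisons, and Cd4 passed in 1, with age. Cd8a, whose product binds MHC class I beside the receptor, was at 3.54, 6.01 and 5.51 TPM in untreated Esr1 mice, 1.43, 2.02 and 0.93 under tamoxifen and 1.06, 0.87 and 2.84 under letrozole. It was at 11.1, 4.76 and 4.08 TPM in 18-month and 2.38, 1.66 and 0.51 in untreated 20-month CYP19A1 mice. The groups did not overlap. Its log2 difference was -1.31 ± 0.38 (limma adjusted p = 0.048) between lines, -1.57 ± 0.38 (limma adjusted p = 0.02) for age and -1.27 ± 0.38 (limma adjusted p = 0.042) for letrozole, and -1.29 ± 0.38 (limma adjusted p = 0.079) for tamoxifen, which did not pass.

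Cd8b1, the beta chain that marks conventional CD8 T cells and lies 35934 bases from Cd8a on chromosome 6, was at 2.12, 3.12 and 2.35 TPM in untreated Esr1 mice, 1.14, 0.93 and 0.81 under tamoxifen and 0.71, 0.80 and 1.44 under letrozole. It was at 4.91, 3.11 and 2.94 TPM in 18-month and 0.70, 1.04 and 0.56 in untreated 20-month CYP19A1 mice. Again no groups overlapped. The log2 difference was -1.38 ± 0.24 (limma adjusted p = 0.0097) for age, -1.0 ± 0.24 (limma adjusted p = 0.021) between lines and -0.84 ± 0.24 (limma adjusted p = 0.036) for letrozole.

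Cd4, the coreceptor of helper T cells, which some macrophages and dendritic cells also carry, was at 3.45, 1.85 and 2.07 TPM in 18-month and 0.76, 0.81 and 0.40 in untreated 20-month CYP19A1 mice. These groups did not overlap, and the log2 difference was -1.04 ± 0.27 (limma adjusted p = 0.026). In the Esr1 line it was at 2.38, 1.35 and 2.06 TPM untreated, 0.95, 1.68 and 0.63 under tamoxifen and 2.13, 0.55 and 0.69 under letrozole, where 1 mouse of each drug group lay among the untreated mice. Neither drug difference passed (-0.50 ± 0.27 and -0.52 ± 0.27 on the log2 scale).

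All 3 proximal signalling genes passed in the age comparison of the CYP19A1 line. Lck, the kinase that phosphorylates the CD3 chains, was at 8.23, 3.20 and 3.75 TPM at 18 months and 2.41, 1.6 and 1.54 untreated at 20 months. The groups did not overlap, and the log2 difference was -1.01 ± 0.27 (limma adjusted p = 0.027). In Esr1 mice Lck was at 5.09, 3.19 and 4.61 TPM untreated, 1.29, 1.32 and 2.43 under letrozole and 2.11, 1.97 and 1.63 under tamoxifen. Both drug groups lay wholly below the untreated mice, and the log2 difference was -0.99 ± 0.27 (limma adjusted p = 0.026) for letrozole and -0.85 ± 0.27 (limma adjusted p = 0.097) for tamoxifen. Zap70, the kinase recruited to the phosphorylated chains, went from 3.48, 1.41 and 1.45 TPM at 18 months to 0.71, 0.44 and 0.36 at 20 months in CYP19A1 mice. Lat, the adaptor that Zap70 phosphorylates, went from 5.92, 3.11 and 3.06 to 2.11, 1.48 and 1.01 TPM. Neither gene overlapped between these ages, and their log2 differences were -0.99 ± 0.23 (limma adjusted p = 0.017) and -0.97 ± 0.23 (limma adjusted p = 0.02). Neither passed in the other 3 comparisons, although neither overlapped there. Zap70 reached 1 TPM in 7 libraries, all of 18-month mice or untreated 20-month Esr1 mice. It therefore entered the test only through the groups where it was high.

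Of 5 tested adhesion and costimulatory receptors 1 passed, in 1 comparison. Cd2, Cd5, Cd27 and Cd28 passed in none, and Icos, a costimulator of activated T cells, was too low to test. Cd6, a scavenger receptor family protein that modulates receptor signalling, passed with age in the CYP19A1 line, from 3.51, 1.34 and 1.0 TPM to 0.51, 0.60 and 0.38. These groups did not overlap, with 18-month mouse 1 far above the others, and the log2 difference was -0.89 ± 0.26 (limma adjusted p = 0.036). Cd27, a TNF receptor family costimulator, ranged from 2.02 to 6.37 TPM over all libraries and was highest in tamoxifen-treated Esr1 mouse 2. Cd2, which binds Cd48, ranged from 1.6 to 7.63 TPM. Cd5, which dampens receptor signals, ranged from 0.49 to 1.66 TPM, and Cd28, the receptor for Cd80 and Cd86, from 0.45 to 1.43. Their log2 differences in the 4 comparisons lay between -0.59 and 0.23 for Cd27 and between -0.40 and -0.01 for Cd5.

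Among the cytokine receptors Il2rb, the beta chain shared by the receptors of interleukins 2 and 15, was at 4.23, 2.46 and 2.82 TPM in 18-month and 1.46, 1.14 and 0.90 in untreated 20-month CYP19A1 mice. The groups did not overlap, and the log2 difference was -0.93 ± 0.19 (limma adjusted p = 0.014). Il7r, the receptor chain that keeps naive and memory T cells alive, passed in no comparison and ranged from 0.57 to 4.23 TPM.

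Of all members Ccl5 had the largest differences with age in the CYP19A1 line and between the untreated lines. It was at 7.85, 12.8 and 11.7 TPM in 18-month Esr1 mice and 11.2, 12.8 and 10.3 in untreated 20-month Esr1 mice. It was at 27.7, 9.87 and 11.8 TPM in 18-month and 4.52, 2.48 and 2.28 in untreated 20-month CYP19A1 mice. The last group lay below all of the others just named, with no overlap. The log2 difference was -1.99 ± 0.35 (limma adjusted p = 0.0097) for age in the CYP19A1 line and -1.64 ± 0.35 (limma adjusted p = 0.0095) between the untreated lines. Under tamoxifen Esr1 mice had 2.82, 4.69 and 4.06 TPM and under letrozole 5.66, 4.06 and 7.33. Both were below the untreated mice without overlap, but the log2 differences of -1.37 ± 0.35 (limma adjusted p = 0.0503) and -0.92 ± 0.35 (limma adjusted p = 0.10) missed the threshold. Without 18-month CYP19A1 mouse 1, the highest library for Ccl5, the age difference was -1.57 (limma adjusted p = 0.038).

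The chemokine receptors Cxcr3 and Cxcr6 guide activated T and NK cells into tissue. Cxcr3, the receptor of Cxcl9 and Cxcl10, was at 2.36, 2.42 and 2.52 TPM in untreated and 0.97, 0.56 and 1.57 in letrozole-treated Esr1 mice, and went from 3.63, 2.19 and 2.85 at 18 months to 1.16, 1.25 and 0.87 at 20 months in CYP19A1 mice. Both pairs of groups were apart, and the log2 difference was -0.79 ± 0.23 (limma adjusted p = 0.042) for letrozole and -0.88 ± 0.23 (limma adjusted p = 0.028) for age. Cxcr6, the receptor of Cxcl16 and a marker of tissue-resident T cells, went from 9.90, 4.28 and 5.47 TPM to 3.33, 2.86 and 2.78 with age in the CYP19A1 line. These groups did not overlap, and the log2 difference was -0.85 ± 0.24 (limma adjusted p = 0.035). Ccr7, which brings naive T cells to lymph nodes, was at 0.11 to 0.80 TPM and was not tested.

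Few of the cytotoxic and NK genes were high enough to test, namely Nkg7, Gzma, Gzmb and Klrd1. Gzmb, the serine protease that triggers death of target cells, was at 1.55, 2.48 and 0.93 TPM in untreated Esr1 mice, 0.03, 0.10 and 0.37 under tamoxifen and 0.78, 0.14 and 0.33 under letrozole. The untreated mice lay above both drug groups, and the log2 difference was -1.15 ± 0.29 (limma adjusted p = 0.049) for tamoxifen and -0.89 ± 0.29 (limma adjusted p = 0.059) for letrozole. In CYP19A1 mice Gzmb was at 2.40, 0.37 and 0.19 TPM at 18 months and 0.33, 0.14 and 0.02 untreated at 20 months. The ages overlapped, with 18-month mouse 1 far above the rest, and the untreated lines differed by -1.16 ± 0.29 (limma adjusted p = 0.025) on the log2 scale. Only 3 libraries reached 1 TPM of Gzmb, the number the filter asks for, and 2 of these were untreated Esr1 mice.

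Klrd1, which encodes CD94, the partner chain of NKG2 receptors on NK cells and some CD8 T cells, was at 2.88, 1.97 and 4.27 TPM in untreated Esr1 mice, 0.62, 0.76 and 1.13 under tamoxifen and 1.15, 0.92 and 1.36 under letrozole. The groups did not overlap. Klrd1 differed on the log2 scale by -1.11 ± 0.23 (limma adjusted p = 0.025) for tamoxifen and -0.88 ± 0.23 (limma adjusted p = 0.024) for letrozole. Nkg7, a membrane protein of cytotoxic granules, went from 9.01, 5.48 and 3.40 TPM at 18 months to 2.17, 1.23 and 1.28 at 20 months in CYP19A1 mice without overlap. Its log2 difference was -1.38 ± 0.31 (limma adjusted p = 0.015). Gzma, a second granzyme, ranged from 0.14 to 6.18 TPM and passed nowhere.

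The members too low to test were also lower in part. Of the 11, 4 were lower with no overlap in the CYP19A1 line with age (Gzmk, Prf1, Klrb1c and Tbx21), a share close to the 33.8% of all tested genes. The same count was 3 between the untreated lines (Pdcd1, Gzmk and Klrb1c), beside 13.0% of all tested genes. It was 5 for tamoxifen (Pdcd1, Gzmk, Prf1, Klrb1c and Ncr1), beside 6.98%, and 4 for letrozole (Gzmk, Prf1, Klrb1c and Ncr1), beside 16.5%, in the Esr1 line. Gzmk, a granzyme of memory-like CD8 T cells, was at 0.92, 1.02 and 0.73 TPM in untreated Esr1 mice and 0.17, 0.25 and 0.13 in untreated 20-month CYP19A1 mice. Ncr1, which encodes the NK receptor NKp46, was at 0.40, 0.60 and 0.62 TPM untreated, 0.19, 0.38 and 0.28 under tamoxifen and 0.22, 0.30 and 0.18 under letrozole in Esr1 mice. Both drug groups of Ncr1 lay below the untreated mice, at levels that a test on log2(TPM + 1) hardly resolves. Foxp3, the factor of regulatory T cells, ranged from 0.15 to 0.81 TPM, Eomes from 0.05 to 0.47 and Ctla4 from 0.05 to 1.02. Tcf7, the factor of naive and memory T cells, was tested and passed nowhere (0.77 to 3.11 TPM).

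Lag3 and Cd247 differed between the lines when all 4 conditions were averaged. Lag3 (ENSMUSG00000030124.2, chr6:124904359-124912434), an inhibitory receptor that binds MHC class II and lies 16111 bases from Cd4, was at 0.97, 0.82 and 0.93 TPM in 18-month Esr1 mice, 1.68, 0.40 and 0.89 untreated, 1.03, 0.89 and 1.14 under tamoxifen and 0.89, 1.04 and 0.90 under letrozole. In the CYP19A1 line it was at 1.76, 1.76 and 2.61 TPM at 18 months, 1.56, 1.31 and 1.2 untreated at 20 months, 1.95, 1.87 and 1.31 under tamoxifen and 1.53, 1.74 and 0.89 under letrozole. The medians over 12 mice were 0.92 TPM in the Esr1 and 1.65 TPM in the CYP19A1 line. The ranges overlapped, from 0.40 to 1.68 and from 0.89 to 2.61 TPM, through untreated Esr1 mouse 1 and letrozole-treated CYP19A1 mouse 3. The log2 difference was 0.41 ± 0.09 (limma adjusted p = 0.0081), and Lag3 was the only tested member that was higher, beside 3.96% of all tested genes. Cd247 had medians of 2.33 TPM in the Esr1 and 1.39 TPM in the CYP19A1 line, with ranges of 1.13 to 3.17 and 1.04 to 2.23 TPM that overlapped. Cd247 differed by -0.36 ± 0.09 (limma adjusted p = 0.02) on the log2 scale. It was the only tested member that was lower, beside 3.31% of all tested genes. In each direction 1 call among the 29 tested members is a share near that of all tested genes.

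Within single conditions other than the untreated mice at 20 months, no member passed between the lines. At 18 months no member passed, and 1.36% of all genes did. An unadjusted limma p under 0.05 was found for 3 members (Lag3, Gzma and Lat), beside 1619 of the 19325 genes. Under tamoxifen none passed (1.01% of all genes did), and Lag3 alone had an unadjusted limma p under 0.05, beside 1519 of all genes. Under letrozole none passed (0.906% of all genes did), and Cd247 alone had such an unadjusted p, beside 1489 of all genes. Lag3 was 0.66 ± 0.19 (limma adjusted p = 0.11) at 18 months on the log2 scale.

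Ratios within a library showed how the members stood to one another. The sum of the 3 CD3 chains and the zeta chain Cd247, over Ptprc, the CD45 phosphatase of all white blood cells, was 0.434 to 0.843 in untreated Esr1 mice and 0.262 to 0.416 under letrozole. Under tamoxifen it was 0.283 to 0.391, and in CYP19A1 mice it was 0.399 to 0.563 at 18 months and 0.281 to 0.314 untreated at 20 months. In each of the 4 comparisons the lower group lay wholly below the other, so this sum was lower relative to Ptprc as well as to all RNA. Ptprc itself passed in none of the 4 comparisons and overlapped between groups in 3 of them, and its age difference in the CYP19A1 line was -0.84 ± 0.31 (limma adjusted p = 0.081) on the log2 scale. The cytotoxic genes over the same sum of CD3 and zeta chains gave group means between 0.467 ± 0.0589 and 0.687 ± 0.229 (SD, n = 3), and the ranges of the lowest and highest groups overlapped. Cd8a over Cd4 ranged from 0.498 to 4.45 over the libraries. Cd27 over that sum was 0.163 to 0.255 in untreated Esr1 mice, 0.411 to 0.832 under tamoxifen and 0.312 to 0.641 under letrozole, without overlap. In CYP19A1 mice it was 0.208 to 0.479 at 18 months and 0.393 to 0.807 at 20 months, and these overlapped. The extremes 0.843, 4.45 and 0.163 all came from untreated Esr1 mouse 2, the library with 31.2% ribosomal RNA. No ratio was tested.

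**Figure D4:**
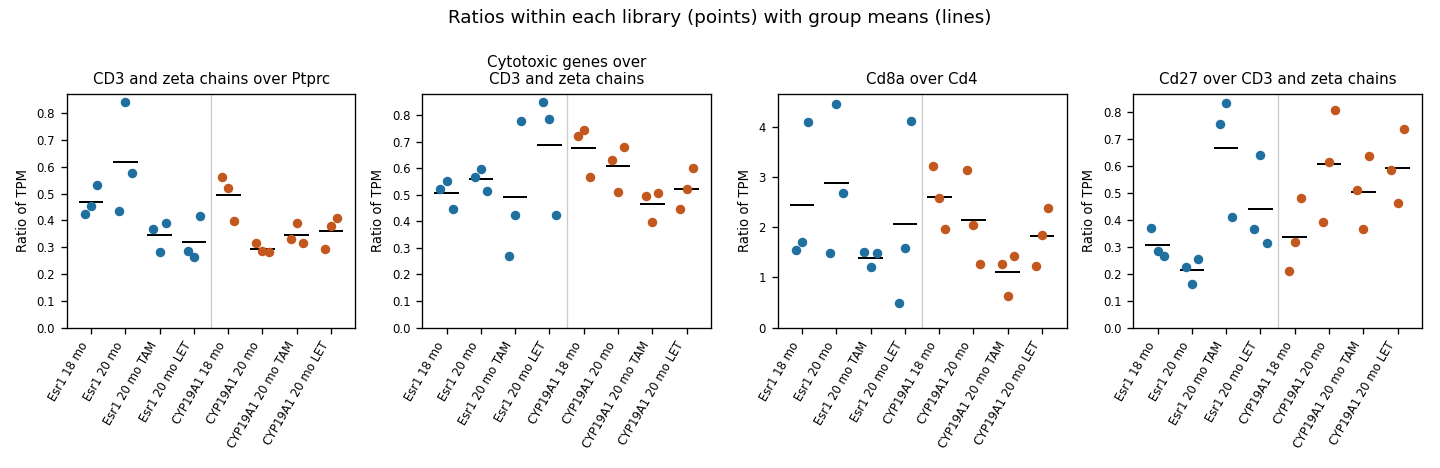
Ratios of TPM within each library (points; blue, Esr1 line; orange, CYP19A1 line) with the group means (lines), 3 mice a group: the sum of Cd3d, Cd3e, Cd3g and Cd247 over Ptprc, the cytotoxic gene sum over it, Cd8a over Cd4, and Cd27 over that same sum. The first ratio is highest (0.843) and Cd27 over the CD3 and zeta chains is lowest (0.163) in untreated Esr1 mouse 2, the library rich in ribosomal RNA.

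Genes that work with the members were read from lists chosen with earlier results known. Of 22 further genes of T cell receptor signalling 20 were tested. Of all tested genes 6.45% fell with age in the CYP19A1 line, 3.16% were lower between the untreated lines and 5.81% fell with letrozole in Esr1 mice. With tamoxifen in Esr1 mice 3556 of the 19325 genes had an unadjusted limma p under 0.05. With age in the CYP19A1 line 6 fell and 1 rose. Of these Themis, a regulator of T cell selection, went from 3.16, 1.65 and 1.97 TPM to 0.70, 0.67 and 0.41 (log2 difference -1.01 ± 0.21, limma adjusted p = 0.014), and Ubash3a, which restrains the signal, from 2.96, 1.63 and 2.18 to 0.98, 0.68 and 0.30 (log2 difference -0.98 ± 0.21, limma adjusted p = 0.015). The gene that rose was Prkcq, a protein kinase C of T cells that skeletal muscle also expresses, from 5.55, 5.64 and 2.28 to 13.3, 12 and 18.5 TPM (log2 difference 1.56 ± 0.30, limma adjusted p = 0.013), and 3.01% of all tested genes rose. Between the untreated lines 2 were lower, Themis and Ptpn22. Ptpn22, a phosphatase that acts on Lck and Zap70, was at 7.48, 11.8 and 9.39 TPM in Esr1 and 2.72, 3.48 and 1.87 in CYP19A1 mice (log2 difference -1.52 ± 0.31, limma adjusted p = 0.0076). With letrozole in Esr1 mice Ptpn22 and Ikzf1, a lymphoid transcription factor, were lower (log2 differences -1.24 ± 0.31, limma adjusted p = 0.019, and -0.70 ± 0.21, limma adjusted p = 0.041), and with tamoxifen none passed while 10 had an unadjusted p under 0.05.

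Of 23 ligands and partners of the member receptors 20 were tested. Of these 4 were lower at 20 than at 18 months in CYP19A1 mice, beside 6.45% of all tested genes. H2-K1, a classical MHC class I chain that shares sequence with other class I genes, went from 1009, 707 and 547 TPM to 385, 308 and 209 (log2 difference -1.32 ± 0.29, limma adjusted p = 0.016). B2m, the light chain of class I, went from 1438, 1182 and 1091 to 692, 576 and 396 (log2 difference -1.18 ± 0.32, limma adjusted p = 0.028), and Cxcl9, the interferon-induced ligand of Cxcr3, from 14.2, 6.39 and 8.03 to 1.89, 3.18 and 2.49 (log2 difference -1.53 ± 0.37, limma adjusted p = 0.021). The remaining 1 was Il2rg, the common gamma chain (log2 difference -0.80 ± 0.24, limma adjusted p = 0.044). H2-K1 was also lower between the untreated lines (log2 difference -1.10 ± 0.29, limma adjusted p = 0.033), as the only call, beside 3.16% of all tested genes. With letrozole in Esr1 mice the only call was Cxcl16, the ligand of Cxcr6, from 14.6, 15.2 and 16.2 TPM to 8.71, 4.81 and 6.16 (log2 difference -1.14 ± 0.34, limma adjusted p = 0.041). A single call among the 20 tested is a share near the 5.81% of all tested genes. With tamoxifen none passed. Averaged over conditions, 3.96% of all tested genes were higher in the CYP19A1 line and 3.31% lower. On this average Cd274, which encodes the PD-1 ligand PD-L1, was higher in the CYP19A1 line (log2 difference 0.41 ± 0.12, limma adjusted p = 0.04). Il15, a growth factor of NK and memory CD8 cells, was lower (log2 difference -0.41 ± 0.12, limma adjusted p = 0.036), as were B2m and Ccl21a, a chemokine gene with near-identical copies whose value is uncertain. Of the signalling genes 1 differed on average, Lcp2, the adaptor SLP-76 (log2 difference -0.42 ± 0.11, limma adjusted p = 0.019).

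Of 25 other genes of T cells, NK cells and innate lymphocytes 19 were tested. The shares of all tested genes that were lower were 6.45% for age in the CYP19A1 line, 5.81% for letrozole in Esr1 mice and 3.16% between the untreated lines. With age in the CYP19A1 line 4 fell, namely Itgae (log2 difference -1.12 ± 0.30, limma adjusted p = 0.028), the integrin chain that holds T cells in epithelium, Fasl (log2 difference -0.72 ± 0.20, limma adjusted p = 0.034), a death ligand, Cd96 (log2 difference -0.79 ± 0.23, limma adjusted p = 0.036), an NK and T cell receptor, and Runx3 (log2 difference -0.79 ± 0.24, limma adjusted p = 0.044), a factor of CD8 T cells. Itgae also fell with letrozole in Esr1 mice, from 2.79, 3.62 and 4.21 TPM to 1.06, 0.64 and 1.64 (log2 difference -1.12 ± 0.30, limma adjusted p = 0.026). Letrozole further lowered Gata3 (log2 difference -1.52 ± 0.31, limma adjusted p = 0.0068), which luminal mammary epithelium expresses as well as T cells. Zbtb16, a factor of innate-like T cells that other tissues also express, was higher under letrozole, from 15.9, 5.46 and 18.1 TPM to 33.9, 46.6 and 41.3 (log2 difference 1.69 ± 0.37, limma adjusted p = 0.011), and 2.85% of all tested genes were higher. Between the untreated lines 1 passed, Tcrg-C2, a gamma chain constant region with near-identical copies, at 2.85, 3.87 and 7.18 TPM in Esr1 and 1.36, 0.95 and 0.18 in CYP19A1 mice (log2 difference -1.61 ± 0.45, limma adjusted p = 0.044). With tamoxifen none of the 19 passed and 8 had an unadjusted limma p under 0.05, beside 3556 of the 19325 genes.

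The summed level of skeletal muscle markers was high where that of the members was low. The 12 skeletal muscle genes summed to 5789 to 18311 TPM in untreated Esr1 mice, 20787 to 29248 under tamoxifen and 26750 to 29634 under letrozole. In CYP19A1 mice they summed to 21.8 to 6864 TPM at 18 months and 18342 to 31628 untreated at 20 months. The group lower in T and NK genes was the higher in muscle genes in each of the 4 comparisons, without overlap. Of these 12 genes 2 passed, Mb and Myh1, both higher with age in the CYP19A1 line, where 3.01% of all tested genes were higher. With a skeletal muscle score as a covariate the number of members called was 20 for age in the CYP19A1 line, 13 between the untreated lines, 10 for tamoxifen and 15 for letrozole, above the counts without it. As the muscle sums did not overlap between the compared groups, muscle content and group cannot be told apart by this fit. Among 18-month CYP19A1 mice, mouse 3 had the least muscle RNA (21.8 TPM) and a member sum of 104. Mouse 2 had the most (6864 TPM) and a member sum of 96.7. Mouse 1 lay between them in muscle RNA and had the highest member sum, 199. The part of muscle RNA in the members' differences was not tested.

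Epithelial and proliferation sums were low where the members were low, except the epithelial sum under tamoxifen, which overlapped. The 8 epithelial markers summed to 414 to 555 TPM in untreated Esr1 mice, 212 to 490 under tamoxifen and 109 to 181 under letrozole. In CYP19A1 mice they summed to 363 to 613 TPM at 18 months and 227 to 346 untreated at 20 months. Apart from tamoxifen, these groups did not overlap. Of the 8 epithelial genes 5 passed with letrozole (Elf5, Cdh1, Krt8, Epcam and Krt18, all lower), beside 5.81% of all tested genes. Between the untreated lines 1 passed (Elf5, lower), beside 3.16%. None passed for age or tamoxifen, where 3 and 1 had an unadjusted limma p under 0.05, beside 5666 and 3556 of the 19325 genes. With an epithelial score as a covariate, chosen after the data were seen, 4 members passed for age, 2 between the untreated lines, 3 for tamoxifen and none for letrozole. As the epithelial sums did not overlap except under tamoxifen, this fit cannot tell epithelial content and group apart in the other comparisons. With the score the median log2 difference of the members was -0.69 for age, -0.51 between the untreated lines, -0.41 for tamoxifen and -0.10 for letrozole. Without it these medians were -0.93, -0.70, -0.65 and -0.69. Over all tested genes the medians with the score were -0.12, 0.12, 0.12 and 0.20 in the same order. Without it they were -0.23, 0.02, 0.05 and -0.01. Of 15 proliferation genes 12 fell between 18 and 20 months in CYP19A1 mice, beside 6.45% of all tested genes. Between the untreated lines 10 were lower, beside 3.16%. In the Esr1 line 6 fell with tamoxifen, beside 0.838%, and 14 with letrozole, beside 5.81%. Mki67, a marker of cycling cells, was at 11, 12.7 and 10.3 TPM in untreated Esr1 mice, 1.74, 1.45 and 1.70 under letrozole and 2.62, 2.55 and 1.40 in untreated 20-month CYP19A1 mice. What share of the differences in T and NK genes goes with the tissue sampled was not tested.

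Of 8 tested B cell markers, 5 plasma cell markers and 5 dendritic cell markers none passed in the 4 comparisons by limma, and at most 1 of each list had an unadjusted p under 0.05 in a comparison. The 10 B cell markers summed to 3.48 to 27.3 TPM in untreated Esr1 mice, 8.9 to 13.5 under letrozole and 7.84 to 12 in untreated 20-month CYP19A1 mice, which overlapped. In the CYP19A1 line the 5 plasma cell markers summed to 107 to 113 TPM at 18 months and 51.0 to 73.4 untreated at 20 months. The 12 macrophage markers summed to 494 to 715 and 256 to 486 TPM in these groups. Neither overlapped, and all 5 and all 12 log2 differences were negative, like those of the members. In other comparisons the macrophage markers followed the members less. Under letrozole in the Esr1 line 10 of 12 were higher (median log2 difference 0.41), and under tamoxifen 6 were higher and 6 lower. Between the untreated lines 8 were lower and 4 higher. From 18 to 20 months in the Esr1 line all 12 were lower (median -0.37), where the member median was 0.02. The part of both lists in the members' differences was not tested. Of 12 macrophage markers 1 passed, Mertk, between the untreated lines (log2 difference -0.75 ± 0.19, limma adjusted p = 0.025), where 3.16% of all tested genes were lower. Among 7 lymph node stroma markers Madcam1, an adhesion molecule of vessels, was lower at 20 months in the CYP19A1 line and under letrozole in the Esr1 line. Its log2 differences were -1.53 ± 0.36 (limma adjusted p = 0.018) and -1.56 ± 0.36 (limma adjusted p = 0.014). Of all tested genes 6.45% and 5.81% were lower in these comparisons. The list did not move with Madcam1. Of the 6 tested, 5 had positive log2 differences under letrozole, and with age in the CYP19A1 line 3 were positive and 3 negative. The stroma sum was 10.2 to 23.2 TPM in untreated and 17.4 to 48.2 in letrozole-treated Esr1 mice, which overlapped. Ccl21a and Chst4 of these stroma markers were listed at 0 in some library. Whether a lymph node was included in some glands was not tested.

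**Figure D5:**
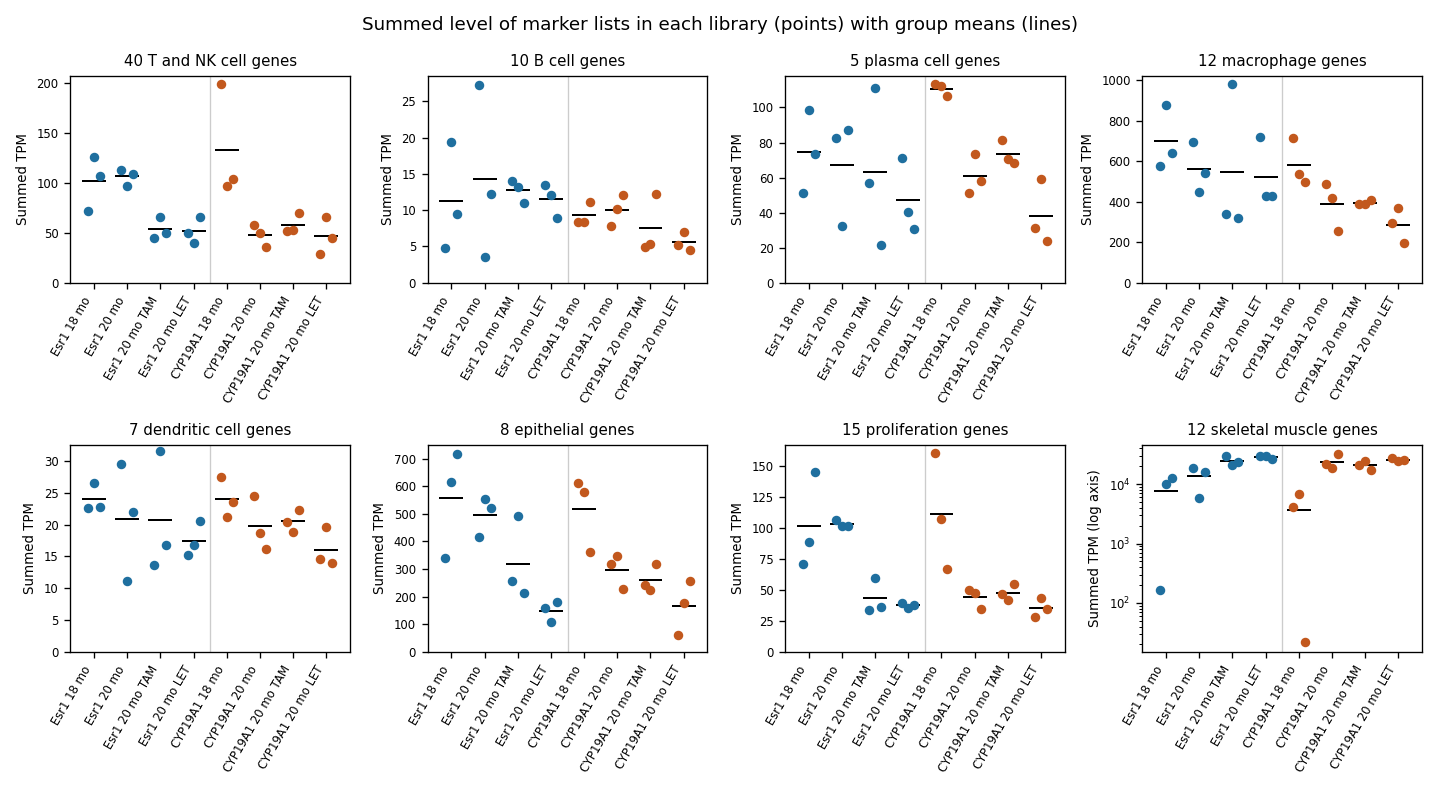
Summed TPM of 8 marker lists in each library (points; blue, Esr1 line; orange, CYP19A1 line; lines, means of 3 mice), with a log axis for skeletal muscle. T and NK, epithelial and proliferation sums are low in the untreated 20-month CYP19A1 mice and the drug-treated Esr1 mice, where the muscle sum is high, and B cell sums overlap between groups. The epithelial sum of tamoxifen-treated Esr1 mouse 2 (490 TPM) lies within the untreated Esr1 range.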

How the data were processed

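RNA of 24 mammary glands was sequenced after ribosomal RNA depletion, with strand-specific libraries of total RNA. The authors deposited 1 table of TPM values for 55487 genes. Per the submitters' processing notes the tools were FastQC 0.11.9, Trim Galore 0.6.5, STAR 2.7.9a and RSEM 1.3.1, with mouse build mm10. Which annotation was used is not given in these sources. TPM keeps no depth, so no counting error can be given, and an RNA that takes a large share lowers the TPM of all others.

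Groups were taken from the sample titles. The 19325 genes that reached 1 TPM in 3 or more libraries were kept, and log2(TPM + 1) was fitted with limma 3.58.1 (R 4.3.3, 8 group means, trended and robust variance, 16 comparisons, two-sided). P-values were adjusted by the Benjamini-Hochberg method over all genes tested, with a threshold of 0.05, and log2 differences are on that scale, which understates changes of low genes. The model was first run on simulated data with independent noise for each gene. These held no shared tissue differences and no outlying mice, so that run says nothing about their effect on the calls. A list is summarised by its TPM sum or by counts of its genes that passed.

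Every member was accounted for. Those that passed in at least 1 comparison have values per library, and genes of other lists were named only where they passed, at most 4 per list and comparison by smallest p, or where they mark a cell type that was checked. A gene that this rule would name is not reported here. The members and lists were chosen with earlier results of these data known. Positions and promoters are from RefSeq, GRCm38.p6. The alternatives tried were another pseudocount, no filter, 2 rescalings, a replicate block, tissue scores as covariates, fits of the compared groups alone, and leaving out each mouse in turn.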

Additional observations from a re-analysis of the deposited data

How the results depend on the processing

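No member that passed reversed its direction in the comparison where it passed, under the alternatives run. Other named differences were not rerun gene by gene. Lag3 and Cd247 kept their calls for the average over conditions in all 32 alternatives, whereas the Cd247 call between the untreated lines was kept in 4 of 14. The other counts moved. Between the untreated lines, 9 members became 19 with median-ratio scaling, 19 after rescaling without the genes above 10000 TPM, 5 with only the compared groups fitted, and 2 with the epithelial score, an alternative added after the data were seen. Leaving out 1 mouse gave 0 to 7. For age in the CYP19A1 line, 17 became 10 without a filter, 6 with only the compared groups and 4 with the epithelial score, and leaving out 1 mouse gave 0 to 18. For tamoxifen in the Esr1 line, 4 became 1 with a pseudocount of 0.1, 2 without a filter, 15 with median-ratio scaling, 11 after rescaling, 10 with the muscle score and 1 with only the compared groups, and leaving out 1 mouse gave 0 to 5. For letrozole in the Esr1 line, 9 became 3 without a filter, 17 with median-ratio scaling, 19 after rescaling, 15 with the muscle score, 0 with the epithelial score and 3 with only the compared groups, and leaving out 1 mouse gave 0 to 10. The age interaction went from 0 to 1 with the muscle score. Fits of the compared groups alone have fewer samples; the cause of the other shifts was not tested. Median-ratio scaling moved the age median of all genes in the CYP19A1 line from -0.23 to -0.02 on the log2 scale, and that of the members from -0.93 to -0.76.

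Replicate numbers are shared between groups, but in none of 28 pairs of groups did all 3 same-numbered pairs correlate above 0.1 (r from -0.413 to 0.296), so they do not pair the mice. A replicate block gave 7 members between the untreated lines, 16 for age in the CYP19A1 line, 4 for tamoxifen and 8 for letrozole in the Esr1 line. Depth is unknown, 3 mice a group limit every comparison, and 11 members were too low to test.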
